A study of Homo sapiens with 3 samples.

Results

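The imprinted cluster at chromosome band 11p15 was followed here through 10 genes, H19, IGF2, INS-IGF2, ASCL2, TSSC4, KCNQ1, KCNQ1OT1, CDKN1C, SLC22A18 and PHLDA2. The genes were chosen by their symbols, in part because H19 had already been seen to differ between these libraries, so that the levels of the members describe the cluster and are not a test of it. Of the 10 members, 7 were among the 16149 genes listed in at least 1 library, and 5 of these averaged 1 RPKM or more over the libraries. RPKM counts the reads of a gene per kilobase of transcript, after scaling to a common library size.

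mRNA was sequenced from 3 cultured human hepatocellular carcinoma (HCC) lines with 1 library each. The labels give the parent as HCCLM3 with low metastasis ability, and the study's methods give it as HCCLM3-R, a derivative labelled with red fluorescent protein, with high metastatic potential. Subclone 1, by its label, was more metastatic and specific to the lung, and subclone 2 went to the celiac lymph node as well as to the lung. Both subclones descended from single cells, grown out of metastases that the parental cells had formed in nude mice, and which of the study's monoclonal lines they are was not given. Each line is thus 1 culture, the subclones are 1 clone each, and all 3 share the HCCLM3 origin and, by the study's methods, the red fluorescent protein. No p-value can be computed between cell lines with 1 library each, so differences are given with intervals that cover counting error only.

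Imprinted genes are expressed mainly from the copy inherited from the mother or mainly from that of the father, and the 11p15 cluster holds a pair of neighbouring domains of this kind. In the domain at H19, the insulator protein CTCF binds the unmethylated maternal copy of a control region, where H19 is transcribed, while the methylated paternal copy lets IGF2 use the shared enhancers. In the domain at KCNQ1, the paternal copy produces the long antisense transcript KCNQ1OT1, which silences neighbours such as CDKN1C and PHLDA2 on the same chromosome. H19 and IGF2 are abundant in fetal liver, are turned down after birth and are often expressed again in liver tumours. RPKM values hold no information on alleles, so the copy that gave the reads was not measured.

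The places of the members are given on GRCh38 from the GENCODE annotation, since the deposited tables hold no coordinates and were made on hg19. All lie on chromosome 11. H19 spans chr11:1995176-2001470 on the minus strand, with 5 exons in that annotation's longest RefSeq-matched transcript, followed by IGF2 at chr11:2129112-2158658, the read-through gene INS-IGF2 at chr11:2132538-2161209 and ASCL2 at chr11:2268495-2270952, all on the minus strand. TSSC4 lies at chr11:2400488-2403878 on the plus strand. KCNQ1 spans chr11:2444684-2849110 on the plus strand, and the single exon of KCNQ1OT1 runs antisense to it at chr11:2608328-2699994. CDKN1C follows at chr11:2883213-2885773 on the minus strand, SLC22A18 at chr11:2899721-2925246 on the plus strand and PHLDA2 at chr11:2928273-2929455 on the minus strand.

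H19 is a long non-coding RNA and also the precursor of miR-675, whose hairpin lies in exon 1 of the longest H19 transcript that GENCODE matches to RefSeq. The hairpin is shown because it is the stretch of H19 that is cut out as a miRNA precursor, and the 2 mature miRNAs because they are the known small RNA products of H19. The sequences are from RefSeq on GRCh38.p14 and read 5′ to 3′ on the minus strand, and capitals mark the seed, bases 2 to 8 of each mature miRNA. The hairpin lies at chr11:1996759-1996831, the 5p arm at chr11:1996800-1996822 and the 3p arm at chr11:1996768-1996787.
miR-675 hairpin: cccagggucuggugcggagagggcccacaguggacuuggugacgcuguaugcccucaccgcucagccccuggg
hsa-miR-675-5p: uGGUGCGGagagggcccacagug
hsa-miR-675-3p: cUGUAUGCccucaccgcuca
The 2 seeds differ. MIR675 itself was listed in no library, and mature miRNAs were not measured by this mRNA sequencing.

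Before the members are described, the libraries behind them are given. The RPKM values of each gene stood in ratios of whole reads, which gave totals of 4488825 to 4725150 reads per library and 14703 to 14931 listed genes. The epithelial keratin KRT8, at 1614, 1641 and 1742 RPKM in the parent, subclone 1 and subclone 2, and the hepatocyte factor HNF4A, at 11.7, 11.9 and 16.0 RPKM, were present in every line. Of the 12 hepatocyte markers, 11 were listed, with a summed RPKM from 2601 to 2907. Most of each sum came from KRT8 and a second keratin, KRT18, at 953, 1075 and 1048 RPKM. Other markers of this list were near 0, such as APOA1 with 1, 3 and 2 reads, TTR with 0, 0 and 2 reads and SERPINA1 with 1, 4 and 1 reads. APOA2 was not listed. Albumin (ALB) was at 2.46 RPKM in the parent and at 49.5 and 68.8 RPKM in subclones 1 and 2. Among the markers of other cell types, the leukocyte gene PTPRC had 2, 0 and 0 reads, the endothelial gene CDH5 0, 1 and 0 reads and the fibroblast gene COL1A1 9, 11 and 1 reads. Other genes of the same lists were read more often, such as the endothelial genes PECAM1, with 102, 309 and 144 reads, and KDR, with 37, 54 and 88 reads, the fibroblast gene COL3A1, with 109, 56 and 12 reads, and the leukocyte gene CD79A, with 44, 69 and 61 reads. In bulk RNA, a difference in the number of cells that express a gene and a difference in RNA per cell cannot be told apart.

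H19 was far more abundant in both subclones than in the parent, and it was the most abundant member in every library. H19 (Entrez gene 283120) was at 142 RPKM in the parent (1481 reads, 95% exact Poisson interval 135 to 150), at 832 RPKM in subclone 1 (8903 reads, 815 to 849) and at 778 RPKM in subclone 2 (8532 reads, 761 to 794). The parent was low and the subclones were high, with no overlap of the intervals. By RPKM, H19 ranked 419 among all genes of the parent, against 54 and 60 in subclones 1 and 2. It held 0.0330% of the reads of the parent, 0.193% of those of subclone 1 and 0.181% of those of subclone 2.

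The ratio of H19 to the parent was 5.85 in subclone 1 (95% Clopper-Pearson interval of the ratio 5.54 to 6.19) and 5.47 in subclone 2 (5.18 to 5.79). Both ratios share the parental library, so they are not separate observations of a rise. On the scale of log2(RPKM + 0.1), the differences were 2.55 and 2.45, at percentiles 99.3 and 99.2 of the 11370 genes averaging 1 RPKM or more. Between the subclones the ratio was close to 1, at 0.935 in subclone 2 over subclone 1 (0.907 to 0.963). That small difference took the other sign when each library was divided by the actin gene ACTB or by GAPDH, with log2 values of 0.03 and 0.02 in place of -0.10.

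IGF2, the fetal growth factor that shares its enhancers with H19, was listed in no library, and neither was INS-IGF2. The insulin gene INS and the antisense gene IGF2-AS beside them were not listed either. A missing row is not taken here as a measured absence. IGF2 lies wholly inside INS-IGF2 in the RefSeq gene table, while in the GENCODE places given above the genes overlap only in part. The handling of reads shared by overlapping genes was not given, and its part in the missing rows was not tested. Over all genes that lie inside a read-through gene and form its downstream part, 42 of 131 (32.1%) averaged 1 RPKM or more, against 71 of 110 upstream partners (64.5%). EIF4A1, a translation factor that every cell uses and the downstream partner of SENP3 in such a gene, had no row in the parent and was at 0.229 and 0.112 RPKM in subclones 1 and 2, where SENP3 was at 7.37, 7.52 and 7.59 RPKM. EIF4A1 was picked after its values were seen, and other downstream partners were abundant. TCEA1, the downstream partner of LYPLA1, was at 138, 109 and 122 RPKM in the parent, subclone 1 and subclone 2. Of the 131 downstream partners, 16 averaged 5 RPKM or more. As IGF2 had no row, no ratio of H19 to IGF2 could be given, and no limit is set on the level of IGF2.

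ASCL2, a transcription factor gene needed for the placenta and for intestinal stem cells, was also listed in no library. Whether this gene was among those counted is not known, so no limit is set on its level either.

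Among the listed members of the second domain, CDKN1C had the largest ratios to the parent, though not the highest RPKM. It encodes the cyclin-dependent kinase inhibitor p57 and restrains growth. CDKN1C was at 10.3 RPKM in the parent (90 reads, 8.30 to 12.7), at 29.0 RPKM in subclone 1 (260 reads, 25.6 to 32.8) and at 22.7 RPKM in subclone 2 (208 reads, 19.7 to 26.0). The parent was the lowest, and its interval overlapped with neither subclone. The ratio to the parent was 2.81 in subclone 1 (2.21 to 3.62) and 2.20 in subclone 2 (1.71 to 2.84), and the interval in subclone 2 reached below 2. Subclone 2 over subclone 1 gave 0.780 (0.647 to 0.940).

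**Figure D1:**
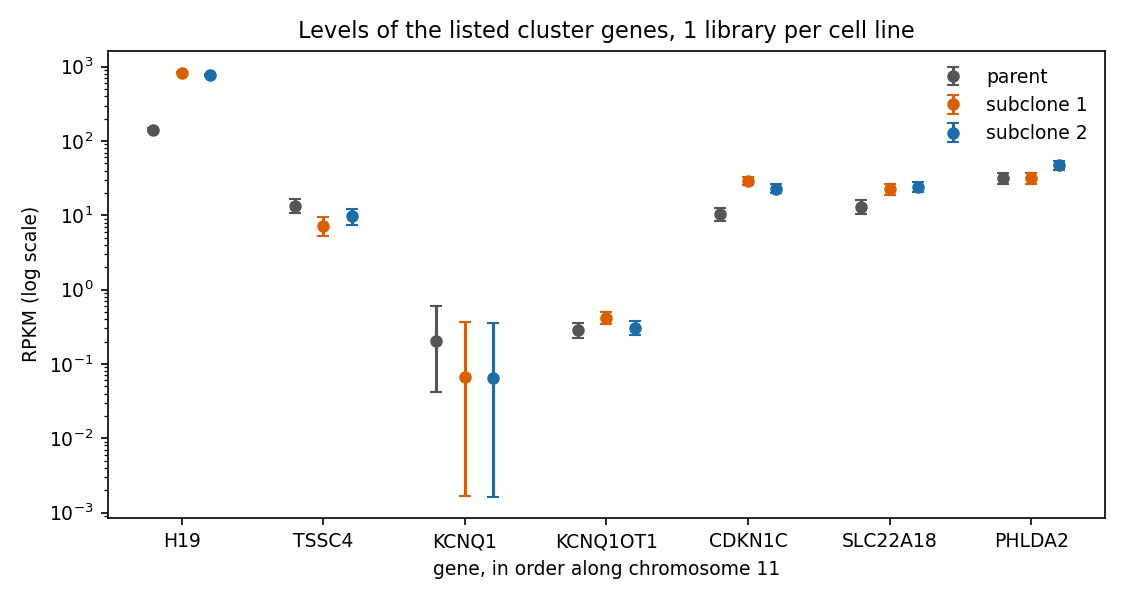
RPKM of the 7 listed members on a log axis, in their order along chromosome 11, in the parent, subclone 1 and subclone 2. Points are the single libraries and bars are 95% exact Poisson intervals. H19 stood at 142 RPKM in the parent and at 832 and 778 RPKM in the subclones, while KCNQ1 and KCNQ1OT1 stayed below 1 RPKM in all 3 libraries.

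SLC22A18, which encodes a membrane transporter of the organic cation type, was at 13.0 RPKM in the parent (91 reads, 10.4 to 15.9), 22.3 RPKM in subclone 1 (161 reads) and 24.0 RPKM in subclone 2 (177 reads, 20.6 to 27.8). Both subclones lay above the parent beyond counting error, with ratios of 1.72 (1.32 to 2.25) and 1.85 (1.43 to 2.41), short of 2-fold. The subclones overlapped with each other, at a ratio of 1.07 (0.861 to 1.34). The antisense gene SLC22A18AS was at 5.12, 5.41 and 6.90 RPKM in the parent, subclone 1 and subclone 2, from 36, 39 and 51 reads. The library kit does not mark strand, so reads from the shared stretch of these genes cannot be told apart.

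PHLDA2 encodes a small protein with a pleckstrin homology domain that limits placental growth. It was at 31.4 RPKM in the parent (132 reads, 26.3 to 37.2), 31.5 RPKM in subclone 1 (136 reads, 26.4 to 37.2) and 47.4 RPKM in subclone 2 (210 reads, 41.2 to 54.3). Only subclone 2 stood apart among the 3 libraries, with a ratio of 1.51 over the parent (1.21 to 1.89) and of 1.51 over subclone 1 (1.21 to 1.88). Subclone 1 over the parent gave 1.00 (0.784 to 1.28).

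KCNQ1OT1, the paternal antisense transcript of the domain, and KCNQ1, which encodes a voltage-gated potassium channel, had the lowest values per length among the listed members. KCNQ1OT1 was at 0.285 RPKM in the parent (76 reads, 0.224 to 0.356), 0.416 RPKM in subclone 1 (114 reads, 0.343 to 0.500) and 0.306 RPKM in subclone 2 (86 reads, 0.245 to 0.378). These low values do not rest on few reads, because the recovered length of this transcript was 59461 bases. The ratio of subclone 1 to the parent was 1.46 (1.08 to 1.98), that of subclone 2 to the parent 1.07 (0.780 to 1.48) and that of subclone 2 to subclone 1 0.736 (0.550 to 0.982).

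KCNQ1 was at 0.205, 0.0665 and 0.0649 RPKM in the parent, subclone 1 and subclone 2, from 3, 1 and 1 reads. The ratio of subclone 1 to the parent had an interval from 0.00618 to 4.04, so no difference was detectable at this depth. KCNQ1OT1 lies within KCNQ1 on the other strand, and without strand the reads of their shared stretch cannot be told apart.

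TSSC4, which encodes a factor of spliceosome assembly, was the only member averaging 1 RPKM or more that was lower in both subclones than in the parent. TSSC4 was at 13.4 RPKM in the parent (87 reads, 10.8 to 16.6), 7.22 RPKM in subclone 1 (48 reads, 5.32 to 9.57) and 9.68 RPKM in subclone 2 (66 reads, 7.49 to 12.3). The ratio to the parent was 0.537 in subclone 1 (0.370 to 0.773) and 0.721 in subclone 2 (0.515 to 1.00), so the latter did not lie beyond counting error. The ratio of subclone 2 to subclone 1 was 1.34 (0.911 to 1.99).

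**Figure D2:**
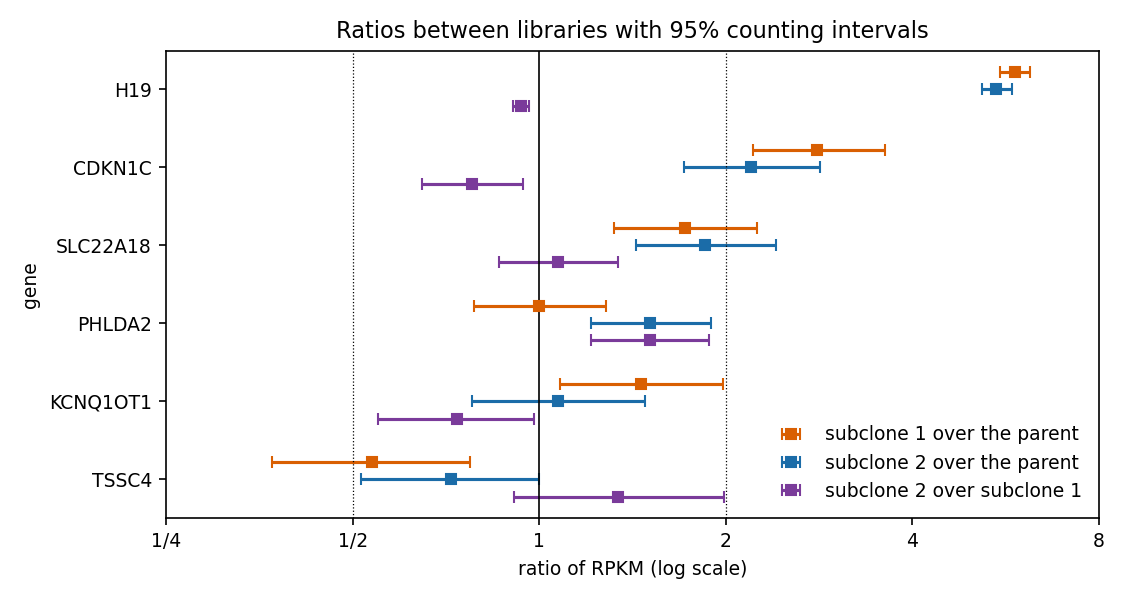
Ratio of RPKM between libraries, on a log axis, for H19, CDKN1C, SLC22A18, PHLDA2, KCNQ1OT1 and TSSC4. Squares are ratios, bars are 95% Clopper-Pearson intervals, which cover counting error only, and dotted lines mark 2-fold in either direction. H19 and CDKN1C lie beyond 2-fold higher in both subclones, and between the subclones all squares lie within 2-fold.

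Counted at a 2-fold limit on the scale of log2(RPKM + 0.1), 2 of the 5 members averaging 1 RPKM or more were higher in subclone 1 than in the parent and 0 were lower. Among all 11370 genes at that level, 557 (4.90%) were higher and 207 (1.82%) were lower, 6.72% in either direction. In subclone 2 over the parent, the same members, H19 and CDKN1C, were higher and 0 were lower, where 606 genes (5.33%) were higher and 246 (2.16%) lower, 7.49% together. In subclone 2 over subclone 1, 0 members were higher and 0 lower, where 161 genes (1.42%) were higher and 158 (1.39%) lower, 2.81% together. As these members were chosen with such differences known, nothing is read from their counts.

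The median log2 difference of the 5 members was 0.78 in subclone 1 over the parent, 0.88 in subclone 2 over the parent and 0.10 between the subclones. The medians over all genes were 0.00, 0.04 and 0.03, and the middle 90% of genes ran from -0.70 to 0.99, from -0.70 to 1.04 and from -0.53 to 0.57. The members were also grouped by the parental copy they were taken to be expressed from, which was not tested in these cells. Among the 7 members grouped as maternally expressed, with TSSC4 and ASCL2 among them, 6 were listed. Their summed level was 210 RPKM in the parent, 922 RPKM in subclone 1 and 881 RPKM in subclone 2. H19 held most of each sum. Among the 3 members grouped as paternally expressed, KCNQ1OT1 was the one listed, at 0.285, 0.416 and 0.306 RPKM.

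The order of the members by RPKM was led by H19 in each library and ended by KCNQ1OT1 and KCNQ1. In the parent, PHLDA2 came after H19, followed by TSSC4, SLC22A18 and CDKN1C, whose intervals overlapped with each other. In subclone 1, PHLDA2 and CDKN1C overlapped at the second place, SLC22A18 overlapped slightly with CDKN1C, and TSSC4 lay below them. In subclone 2, PHLDA2 was second, SLC22A18 and CDKN1C overlapped, and TSSC4 lay below them. The intervals of KCNQ1OT1 and KCNQ1 overlapped in every library.

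The genes around the members were taken from the RefSeq order of chromosome 11, from 10 genes before the outermost member on one side to 10 genes after it on the other. This interval held 52 genes, of which 42 were not members, and 8 of those 42 were listed. The 42 include miRNA, snoRNA, long non-coding RNA and pseudogene entries. Which of them were among the genes counted is not known, so the unlisted ones are not taken as silent. Of the 6 averaging 1 RPKM or more, 0 were at least 2-fold higher and 1 was lower in either subclone than in the parent. Among all genes, 4.90% were higher and 1.82% lower in subclone 1, and 5.33% higher and 2.16% lower in subclone 2. The median log2 difference of the 6 genes was 0.11 in subclone 1 and 0.17 in subclone 2. MRPL23, a mitochondrial ribosomal protein gene on the side of H19, was at 34.4, 37.8 and 34.6 RPKM in the parent, subclone 1 and subclone 2. NAP1L4, a histone chaperone gene next to PHLDA2, was at 61.8, 55.4 and 55.9 RPKM. CARS, the cysteinyl-tRNA synthetase gene, was at 22.8, 29.3 and 35.0 RPKM, with ratios of 1.29 (1.10 to 1.51) and 1.53 (1.32 to 1.78) over the parent.

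The gene that was lower was CD81, a tetraspanin gene at chr11:2376177-2397419, next to TSSC4. CD81 was at 18.5 RPKM in the parent from 124 reads and had no row in either subclone. With the missing rows taken as 0 reads, the ratio to the parent had an upper limit of 0.0294 in subclone 1 and 0.0287 in subclone 2. The nearest listed members on the sides of CD81, H19 and TSSC4, had 8903 and 48 reads in subclone 1. On the other side of H19, LOC100133545, the antisense transcript of MRPL23, was at 0.117, 0.911 and 0.445 RPKM from 1, 8 and 4 reads. Its ratio to the parent was 7.79 in subclone 1 (1.04 to 346) and 3.80 in subclone 2 (0.376 to 187), so that subclone 1 lay above the parent beyond counting error and subclone 2 did not.

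**Figure D3:**
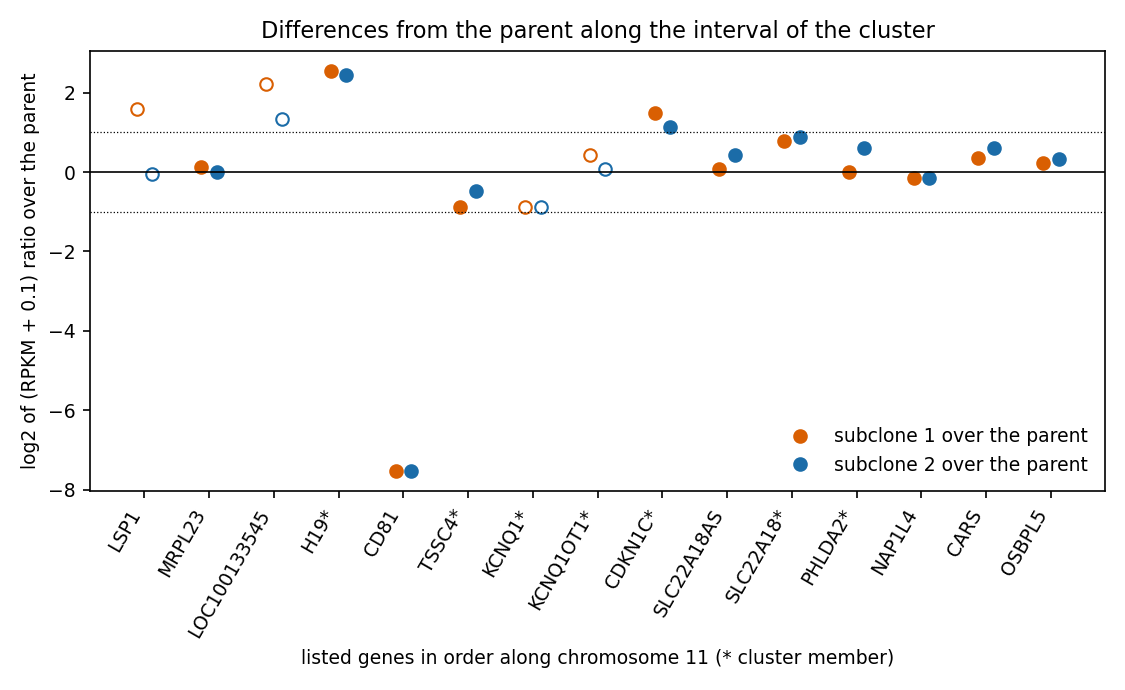
Differences of each subclone from the parent as log2 of the ratio of (RPKM + 0.1), for the 15 listed genes of the interval in their order along chromosome 11. Asterisks mark members, filled circles a mean of 1 RPKM or more, open circles a lower mean, and dotted lines 2-fold. Of the filled circles, those of H19 and CDKN1C lie above the upper line in both subclones and those of CD81, which had no row in either, far below the lower one, where its position depends on the added 0.1.

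The genes whose levels across the 3 libraries were most like those of H19 were found by the distance between pairs of log2 differences from the parent, over all genes averaging 1 RPKM or more. PRODH2, which encodes a hydroxyproline dehydrogenase of liver and kidney, was nearest, at a distance of 0.019 and with 0.399, 2.85 and 2.65 RPKM in the parent, subclone 1 and subclone 2. SLC15A1, an intestinal peptide transporter gene, was at a distance of 0.115 with 0.709, 4.28 and 4.24 RPKM. NR1H4, the gene of the bile acid receptor FXR, was at a distance of 0.125 with 1.61, 10.8 and 9.34 RPKM. These 3 genes had 3, 10 and 18 reads in the parent against 1481 for H19. Their plain ratios to the parent in subclones 1 and 2 were 7.14 (2.15 to 37.3) and 6.65 (1.99 to 34.8) for PRODH2, 6.04 (3.07 to 13.2) and 5.98 (3.05 to 13.1) for SLC15A1, and 6.71 (4.07 to 11.7) and 5.81 (3.51 to 10.2) for NR1H4. The first place of PRODH2 therefore depended on the added 0.1, as its plain ratios lay farther from those of H19, 5.85 and 5.47, than those of SLC15A1 did. PRODH2 and SLC15A1 were below 1 RPKM in the parent and reached the mean of 1 RPKM through the subclones. With IGF2 not listed, no genes nearest to it could be named.

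Genes of proteins that read or keep imprints were set beside the members. Of 16 such genes, 13 were listed and 9 averaged 1 RPKM or more, and 0 of the 9 were at least 2-fold higher or lower in any comparison. Over all genes, 6.72% were past 2-fold in subclone 1 over the parent, 7.49% in subclone 2 over the parent and 2.81% between the subclones. With such small shares, nothing is read from a count of 0 among 9 genes. For subclone 1 against the parent, 5 of the 9 had an interval below 1 and 1, DNMT3B, had an interval above 1 (1.18 to 2.56). For subclone 2, 5 lay below 1 and 0 above. These counts of intervals were not set against those of all genes. The log2 differences of the 5 lower genes lay at percentiles 12.2 to 23.7 of all genes for subclone 1. For subclone 2 they lay at percentiles 15.6 to 22.8. Medians of the log2 differences of the 9 genes were -0.26 and -0.25 for subclones 1 and 2. CTCF, the insulator protein of the H19 control region, was at 22.8, 18.3 and 18.8 RPKM in the parent, subclone 1 and subclone 2. TRIM28, a corepressor that guards imprints, was at 147, 116 and 115 RPKM, and the maintenance methyltransferase DNMT1 at 35.2, 29.4 and 29.6 RPKM. The de novo methyltransferase DNMT3B lay at the other end, at 2.25, 3.89 and 3.26 RPKM. CTCFL, ZFP57 and DPPA3 were not listed.

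A further list of 12 genes held binders of IGF2 mRNA and receivers of the IGF2 signal, and also others such as HMGA2 and PLAGL1. Although IGF2 was not listed, 11 of the 12 were, and 8 averaged 1 RPKM or more. On the scale of log2(RPKM + 0.1), 0 of these were at least 2-fold changed in subclone 1 over the parent, and 1, the insulin receptor gene INSR, was higher in subclone 2. Among all genes, 6.72% were changed in either direction in subclone 1 and 7.49% in subclone 2. The median differences of the 8 genes were 0.14 and 0.00 on the log2 scale. INSR was at 3.69, 7.42 and 10.5 RPKM. Its plain ratio to the parent was 2.01 in subclone 1 (1.65 to 2.46), just short of the limit at 0.99 on the log2 scale, and 2.86 in subclone 2 (2.37 to 3.46). The mRNA-binding proteins IGF2BP1 and IGF2BP3 were at 18.7, 20.0 and 17.4 RPKM and at 41.6, 47.3 and 45.1 RPKM in the parent, subclone 1 and subclone 2. Their relative IGF2BP2 was at 14.4, 21.5 and 21.0 RPKM. Its ratios to the parent were 1.49 in subclone 1 (1.26 to 1.76) and 1.46 in subclone 2 (1.23 to 1.72), beyond counting error in both. IGF2R, the receptor that clears IGF2, was at 40.8, 50.6 and 48.2 RPKM, with ratios to the parent of 1.24 (1.16 to 1.32) and 1.18 (1.11 to 1.26). The signalling receptor IGF1R was at 8.74, 9.28 and 8.06 RPKM. Of the 8 genes, 4 had an interval above 1 and 0 below for subclone 1 over the parent. For subclone 2 over the parent, 3 lay above 1 and 1 below. These counts of intervals were not set against those of all genes either.

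Relatives of the members by sequence or function were fixed as 13 genes, of which 9 were listed and 5 averaged 1 RPKM or more. None of the 5 was at least 2-fold changed in subclone 1 over the parent, and in subclone 2 over the parent 1 was higher and 1 was lower. Among all genes, 6.72% were changed in subclone 1, and 5.33% were higher and 2.16% lower in subclone 2. The median log2 differences of the 5 genes were -0.15 and 0.33. CDKN1A, the p21 relative of CDKN1C, was at 20.0 RPKM in the parent, 39.2 RPKM in subclone 1 and 55.8 RPKM in subclone 2. Its ratio to the parent was 1.96 in subclone 1 (1.65 to 2.32), just short of 2-fold, and 2.79 in subclone 2 (2.38 to 3.28). CDKN1B, the p27 relative, was at 15.0, 17.0 and 18.9 RPKM, with ratios to the parent of 1.14 in subclone 1 (0.916 to 1.41) and 1.26 in subclone 2 (1.02 to 1.56). KCNE4, which encodes a partner subunit of the KCNQ1 channel, was at 12.9, 8.75 and 4.27 RPKM. Its ratio to the parent was 0.679 in subclone 1 (0.534 to 0.863) and 0.331 in subclone 2 (0.243 to 0.447). PHLDA1, a relative of PHLDA2, was at 98.2, 79.1 and 87.5 RPKM.

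**Figure D4:**
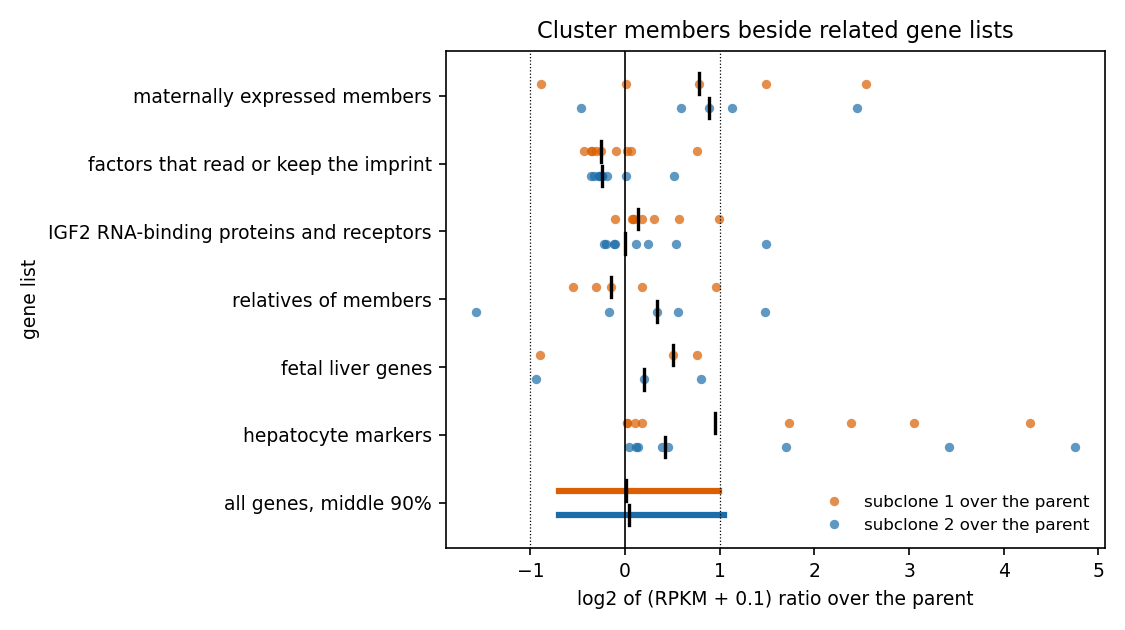
Differences from the parent as log2 of the ratio of (RPKM + 0.1) for genes averaging 1 RPKM or more. They are shown for the members grouped as maternally expressed, a grouping not tested here, and for 5 related lists. Each point is a gene, black bars are medians, the bottom bars span the middle 90% of all genes and dotted lines mark 2-fold. The medians of the members were 0.78 and 0.88, those of the factors that read or keep imprints -0.26 and -0.25.

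Other genes of fetal liver did not all lie on the side of H19. Of 8 such genes, 5 were listed and 3 averaged 1 RPKM or more, and 0 of these were at least 2-fold changed. Among all genes, 6.72% were changed in subclone 1 over the parent and 7.49% in subclone 2 over the parent. The median log2 differences of the 3 genes were 0.50 in subclone 1 and 0.20 in subclone 2 over the parent. AFP, the fetal serum protein alpha-fetoprotein, was at 2.41, 4.16 and 4.27 RPKM, with ratios to the parent of 1.73 (0.999 to 3.06) and 1.77 (1.03 to 3.12). PEG10, an imprinted gene on another chromosome, was at 23.5 RPKM in the parent and at 12.5 and 12.2 RPKM in subclones 1 and 2. Its ratios to the parent were 0.533 (0.469 to 0.604) and 0.518 (0.456 to 0.588), lower beyond counting error in both though short of 2-fold. SOX9, a progenitor transcription factor, was at 5.85, 8.32 and 6.73 RPKM, with ratios to the parent of 1.42 (1.10 to 1.84) and 1.15 (0.881 to 1.51). GPC3 and DLK1 were not listed.

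Some hepatocyte markers were also higher in the subclones. Of the 8 averaging 1 RPKM or more, 4 were at least 2-fold higher in subclone 1 and 3 in subclone 2 than in the parent and 0 were lower. Among all genes, 4.90% and 5.33% were higher and 1.82% and 2.16% lower. The median log2 differences of the 8 markers were 0.95 and 0.42. Albumin was 20.1-fold higher in subclone 1 (13.5 to 31.4) and 28.0-fold higher in subclone 2 (18.8 to 43.5). TF, the gene of transferrin, was at 5.71, 30.3 and 5.88 RPKM, and FGB, a fibrinogen chain gene, at 1.66, 14.5 and 5.60 RPKM, both highest in subclone 1. APOB, an apolipoprotein gene, was highest in subclone 2, at 0.300, 1.23 and 4.17 RPKM. Its ratio of subclone 2 to subclone 1 was 3.39 (2.63 to 4.40). TF, FGB and APOB thus did not have the even levels in both subclones that H19 had. The part of the hepatocyte markers in the levels of the cluster was not tested. The summed RPKM of the 6 fibroblast markers, 4 of them listed, was 4.80, 2.75 and 0.586, that of the 4 endothelial markers, 4 of them listed, 4.74, 11.8 and 7.56, and that of the 5 leukocyte markers, 4 of them listed, 83.3, 125 and 110, most of it from CD68 at 75.3, 112 and 99.6 RPKM. Among these markers, PECAM1 had a ratio to the parent of 2.95 in subclone 1 (2.35 to 3.73), KDR of 2.26 in subclone 2 (1.52 to 3.41) and COL3A1 of 0.105 in subclone 2 (0.0524 to 0.190). The part of these markers was not tested either.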

How the data were processed

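The authors deposited 1 table of RPKM values per library, with Entrez number, symbol and the genes above 0 RPKM. The cultured cells were lysed in Trizol, and an Illumina TruSeq RNA kit, which does not mark strand, was used for the libraries. Per the labels, the submitters' processing notes name the build hg19. The aligner, counting tool and annotation are not given in the sources used here. Genes missing from a table were set to 0. Groups came from the labels, with 1 library each, so no test was run.

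The members and lists were chosen with earlier results of these data known. The rule for naming took all members, the 3 genes nearest to H19, and genes of the lists that changed at least 2-fold or lay at an end of their list. It was not kept strictly. Other genes, such as CTCF, IGF2BP1, IGF2BP2 and CDKN1B, were named as well, and some that met the rule, such as ZNF445, were left out. EIF4A1, SENP3, TCEA1 and LYPLA1 were picked after values were seen. Ratios were taken on log2(RPKM + 0.1), for genes averaging 1 RPKM or more (11370 of 16149), and intervals and plain ratios on RPKM. Library totals came from the ratios of 653 and 625 genes with equal reads and from the common step of low values, on which 173 of 300 fell. Gene lengths were the smallest that made the reads whole, multiplied towards a GENCODE transcript where needed. In 600 of 600 genes checked the reads came out whole, and 73.7% of lengths lay within 10% of the reference, against 6.50% and 6.33% with totals halved or doubled. The procedure was tested on simulated data. Alternatives were pseudocounts of 0.01 and 1, equal library sums, median centring, scaling by the upper quartile, ACTB or GAPDH, no filter or a minimum mean of 5 RPKM, and a 1.5-fold limit. Gene places came from GENCODE 29, gene order and miRNA sequences from RefSeq on GRCh38.p14, where 99.4% of gene numbers were found. Python 3.11.15, numpy 2.4.6, pandas 2.3.3, scipy 1.17.1 and matplotlib 3.10.9 were used.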

Additional observations from a re-analysis of the deposited data

How the results depend on the processing

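With 1 library per line, no library could be left out and nothing separates a difference between cell lines from one between cultures or libraries. No paired analysis was possible because the lines have 1 library each. Of 147 log2 ratios of the 7 listed members under 7 alternatives, 144 stayed within their counting interval, and none that was at least 2-fold changed sign. Those outside were of H19, at 2.42 in subclone 1 over the parent with division by ACTB (2.55 as deposited) and at 0.03 with ACTB and 0.02 with GAPDH in subclone 2 over subclone 1 (-0.10 as deposited). ACTB moved the median of all genes by -0.13 in subclone 1 over the parent, and ACTB and GAPDH by 0.12 each between the subclones. The members lower in subclone 1 than in the parent became 1 (TSSC4) with ACTB and 1 with a 1.5-fold limit, in place of 0. With 1.5-fold, 4 members in place of 2 were higher in subclone 2 than in the parent and 1 (PHLDA2) in place of 0 was higher than in subclone 1. Counts of all genes, higher and lower, in subclone 1 over the parent, subclone 2 over the parent and subclone 2 over subclone 1 were 347 and 117, 380 and 150, and 80 and 77 with a pseudocount of 1. They were 1523 and 884, 1553 and 941, and 842 and 902 with no filter, 233 and 71, 253 and 93, and 43 and 46 with a minimum mean of 5 RPKM, and 1317 and 848, 1444 and 830, and 540 and 467 at 1.5-fold. The share of genes called that were higher went from 72.9% to 57.8% with ACTB in subclone 1 over the parent (449 higher, 328 lower), and from 50.5% to 63.9% with ACTB (216 and 122) and 62.6% with GAPDH (211 and 126) between the subclones. The ratio of H19 to IGF2, alone or summed with INS-IGF2, could not be given. Depth limits KCNQ1, with 1 to 3 reads, most.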
